A study of Mus musculus with 6 samples.

Results

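The 9 receptor tyrosine kinase genes described here are Fgfr1, Fgfr2, Fgfr3 and Fgfr4 (fibroblast growth factor receptors), Igf1r and Insr (insulin-like growth factor 1 and insulin receptors), Met and Mst1r (receptors of hepatocyte growth factor and of macrophage-stimulating protein) and Kit (the stem cell factor receptor). They were taken by symbol from a table of 21397 genes, and all 9 are listed in it. RNA was sequenced from small intestinal organoids of Fpr2f/f mice, in which the Fpr2 gene is floxed and no Cre is named, so that both groups carry the same alleles. The organoids were cultured for 5 days in growth factor-reduced Matrigel and IntestiCult medium with 1 μM MMK-1 (a synthetic peptide that activates FPR2) or with 0.1% DMSO as vehicle. There were 3 libraries per group, and by the study's description every sample pooled organoids of 3 mice. Mice were on the C57BL/6J background and aged 8 to 12 weeks. The treatment label gives the MMK-1 dose as 1 mM where the protocol text has 1 μM.

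Receptor tyrosine kinases are single-pass membrane proteins (the insulin and IGF1 receptors are cleaved, disulfide-linked dimers of the same design) that phosphorylate each other when a ligand joins them. Docking proteins such as FRS2, IRS and GAB then pass the signal to the RAS-ERK and PI3K-AKT cascades. In the intestinal epithelium, FGFR2 and FGFR3 are known from crypt growth and development, insulin and IGF1 receptors from nutrient-driven growth of the mucosa, and MET and its relative MST1R (RON) from epithelial movement and repair. KIT is best known from mast cells and the interstitial cells of Cajal, and it also marks deep crypt secretory cells of the colon.

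With MMK-1, the transcripts of 3 of the 4 FGF receptor genes rose between 3.64-fold and 8.43-fold, and Kit rose 1.83-fold. Mst1r fell by 14.8%, which is a small change beside those rises. Insr and Met did not pass the test in either direction. Igf1r, at a low level, was 1.25-fold higher. Fgfr1 was at or near 0 in every library.

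The libraries held 35512739 to 37537463 fragments. MMK-1 replicate 3 stood apart from the other MMK-1 libraries on the second principal component, with 4.48% of the variance, and the chi-square per degree of freedom of its fragments against theirs was 31.3 and 36.6, where other pairs within a group reached at most 4.97. Values are FPKM, the fragments on a gene divided by its length and by the library total, and differences were tested with limma on log2(FPKM + 1) in the 10551 genes whose mean FPKM was 1 or more. This scale understates the change of genes with a low FPKM, so plain ratios are given beside it. Of the genes tested, 48.5% rose and 24.7% fell with MMK-1 (adjusted p threshold 0.05). The median log2 difference of all genes tested was 0.13, and with median-ratio scaling of the libraries it was -0.0034. The shares called moved with it, to 38.9% higher and 33.1% lower with upper-quartile scaling, 34.9% and 37.1% with median-ratio scaling, 35.7% and 37.3% with a GC correction and 34.6% and 36.4% with a length correction. Nothing in the labels says that the libraries are separate cultures, so that p-values measure the spread between these samples, which may be technical. In bulk RNA, a larger share of cells with a receptor and more receptor RNA per cell cannot be told apart.

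The upstream sequences of the 3 FGF receptor genes that rose are shown, because these are the receptor genes with the largest rises. RefSeq promoter windows on GRCm38.p6 were found for 7 of the 9 receptors, with none for Fgfr1 and Insr. Each line gives the 250 bases before an annotated start, in the direction of transcription, and capitals mark a GC box (GGGCGG, or CCGCCC where it lies on the other strand). The windows are chr7:130266809-130267058 on the minus strand for Fgfr2, chr5:33721474-33721723 on the plus strand for Fgfr3 (the first of its 2 windows) and chr13:55152568-55152817 on the plus strand for Fgfr4.
Fgfr2: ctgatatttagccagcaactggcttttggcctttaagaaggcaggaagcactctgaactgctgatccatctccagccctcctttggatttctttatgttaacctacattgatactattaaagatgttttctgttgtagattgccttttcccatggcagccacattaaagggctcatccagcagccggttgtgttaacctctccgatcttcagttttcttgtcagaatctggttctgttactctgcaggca
Fgfr3: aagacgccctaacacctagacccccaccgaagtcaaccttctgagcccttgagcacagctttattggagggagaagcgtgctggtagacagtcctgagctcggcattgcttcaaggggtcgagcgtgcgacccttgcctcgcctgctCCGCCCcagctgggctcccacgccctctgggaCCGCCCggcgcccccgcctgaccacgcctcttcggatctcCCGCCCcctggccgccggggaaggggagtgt
Fgfr4: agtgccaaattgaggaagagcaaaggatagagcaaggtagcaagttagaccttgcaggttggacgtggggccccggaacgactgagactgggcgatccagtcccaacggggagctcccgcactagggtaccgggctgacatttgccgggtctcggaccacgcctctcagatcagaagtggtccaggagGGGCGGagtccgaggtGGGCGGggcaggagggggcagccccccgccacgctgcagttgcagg
The 3 windows differ in base composition. Fgfr3 holds 66.8% G and C with 19 CpG and Fgfr4 holds 64.0% with 15, whereas Fgfr2 holds 44.0% with 2, against medians of 52.4% and 6 over all 32851 windows. GC boxes were found 3 times in the Fgfr3 window, 2 times in that of Fgfr4 and not in that of Fgfr2, and 32.7% of all windows hold at least 1. The other 5 motifs searched on both strands were CTTTGAT and CTTTGAA, the core letters read by TCF/LEF factors (3.21% and 4.46% of all windows), the E-box CACGTG (6.02%), the ETS core CCGGAA (12.03%) and the TATA box TATAAA (12.4%). Of these, only CCGGAA occurred, 1 time in the Fgfr4 window, so that none of the 6 motifs is shared by the 3 windows. A match of letters is a description of the window and not evidence of a bound site, and the absence of letters says nothing about a factor.

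Fgfr3 (NCBI gene 14184, RefSeq GRCm38.p6 chromosome 5, 33721724 to 33737068) was the most abundant FGF receptor transcript in all 6 libraries. Its FPKM was 1.75, 1.61 and 1.64 in controls and 5.62, 5.73 and 6.89 with MMK-1, from 276 to 298 and from 909 to 1165 fragments. The groups were far apart, and the highest value was that of MMK-1 replicate 3. The mean went from 1.67 ± 0.0694 to 6.08 ± 0.703 (SD, n = 3), a 3.64-fold rise, and the log2 difference was 1.40 (SE 0.0741, limma adjusted p = 5.7e-07).

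Fgfr4 (NCBI gene 14186, chromosome 13, 55152818 to 55168759) had the largest plain ratio of the 9 genes. FGFR4 is best known from the liver, where with the coreceptor β-klotho it receives the gut hormone FGF15. Its FPKM was 0.263, 0.238 and 0.295 in controls and 1.98, 2.14 and 2.58 with MMK-1. These values rest on 33, 30 and 37 control fragments against 236, 258 and 322, so that the ratio is less precisely known than that of Fgfr3. The ratio of the means was 8.43, the log2 difference was 1.35 (SE 0.0794, limma adjusted p = 1.1e-06), and limma-voom on the fragments gave an 8.31-fold rise with a 95% confidence interval from 5.75 to 12.03. On the log2(FPKM + 1) scale Fgfr3 and Fgfr4 therefore look alike while their plain ratios do not.

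Fgfr2 (NCBI gene 14183, chromosome 7, 130162451 to 130266808) encodes the receptor whose epithelial splice form binds FGF7 and FGF10 from the stroma, and gene totals do not tell its splice forms apart. Its FPKM was 0.629, 0.498 and 0.400 in controls and 1.93, 1.99 and 2.33 with MMK-1, from 80 to 126 and from 366 to 462 fragments. The lowest MMK-1 library was above every control library. The ratio of the means was 4.09, the log2 difference was 1.03 (SE 0.0805, limma adjusted p = 5.8e-06), and the 95% confidence interval of the ratio in limma-voom was 3.18 to 5.39.

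Fgfr1 (NCBI gene 14182, chromosome 8, 25518759 to 25575718), the FGF receptor of many mesenchymal cells, had 2 fragments in control replicate 1 and 0 in the other 5 libraries. It was under the filter and no difference was tested.

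**Figure D1:**
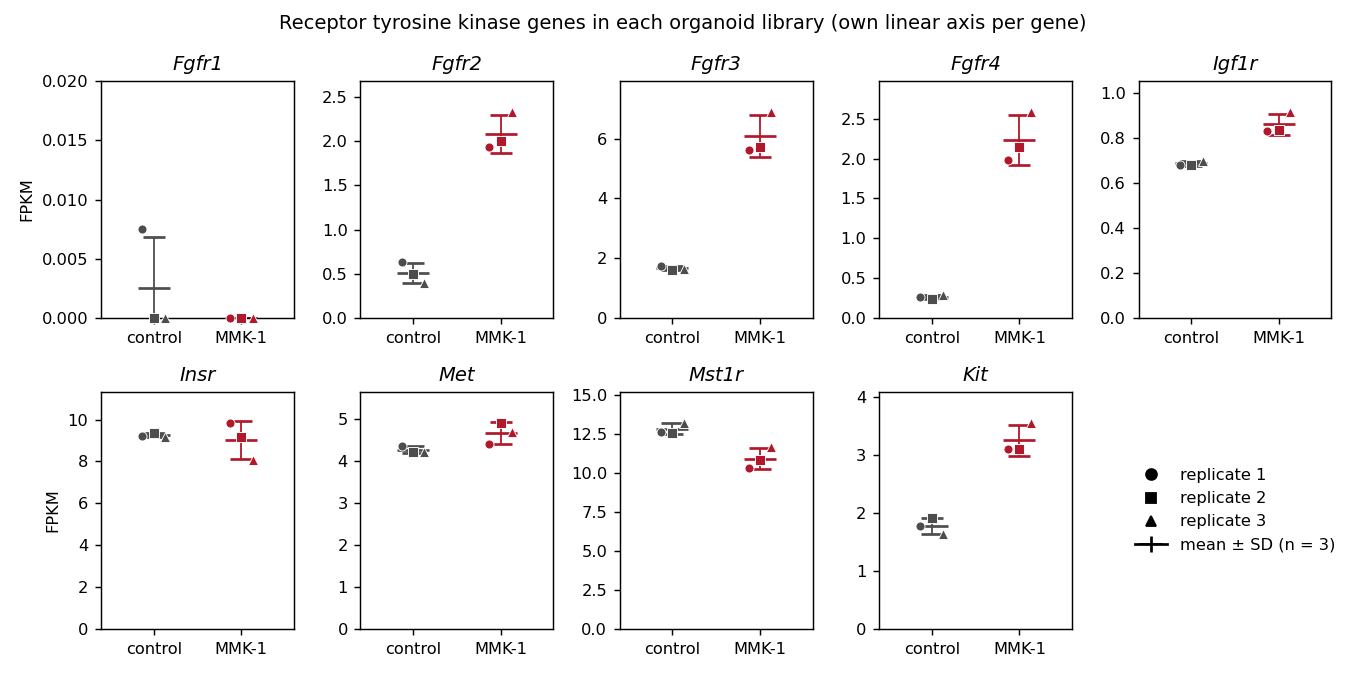
FPKM of the 9 receptor genes in the 3 control and 3 MMK-1 libraries, on a linear axis of its own for each gene. Points are libraries (circle, square and triangle for replicates 1, 2 and 3) and bars are the mean ± SD. Control and MMK-1 libraries are separate for Fgfr2, Fgfr3, Fgfr4, Igf1r, Met, Mst1r and Kit, and they overlap for Insr.

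Among the 7 receptor genes tested, 4 were higher and 1 was lower at the adjusted threshold, which is near the background shares of 48.5% and 24.7% and does not set these genes apart by number. By a fold change of at least 2, the size used in the study's methods but taken here on FPKM + 1, with p at most 0.05, the 3 FGF receptors were called higher and 0 receptors lower, where 3.39% and 3.65% of the genes tested were called. The share of genes higher by this rule was 6.41% with a pseudocount of 0.1 and 10.4% with limma-voom. Fgfr2 only just reached this fold change, with a log2 difference of 1.03. It was below it with upper-quartile scaling (0.97), median-ratio scaling and the GC correction (0.95 each) and the length correction (0.84). The same held without control replicate 3 (0.98) or MMK-1 replicate 3 (0.97), while a pseudocount of 0.1 gave 1.85 and limma-voom 2.05. Fgfr2 and Fgfr4 reached the filter only through their MMK-1 libraries, so that nothing further is read from the number of receptors called. Exact two-sided permutation tests gave p = 0.1 for Fgfr2, Fgfr3, Fgfr4, Igf1r, Met, Mst1r and Kit, the smallest value that 3 libraries against 3 allow, and the values of 76.8% of all genes tested likewise did not overlap between the groups.

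The summed FPKM of the 4 FGF receptors was 2.45 ± 0.174 in controls and 10.4 ± 1.23 with MMK-1 (SD, n = 3), a 4.25-fold rise. The make-up of this sum also differed between these libraries, but a permutation test of 3 against 3 cannot pass the 0.05 threshold. Fgfr3 held 66.0% to 70.3% of it in controls and 58.1% to 59.0% with MMK-1, and Fgfr4 held 9.92% to 12.6% and then 20.8% to 21.9%. The share of Fgfr2 was 17.1% to 23.8% in controls and 19.7% to 20.2% with MMK-1, so that its ranges overlapped. For the shares of Fgfr3 and Fgfr4 the exact permutation p was 0.1 (adjusted p = 0.12 over 6 measures, which were chosen after seeing the data), and for that of Fgfr2 it was 0.7. The plain ratio of Fgfr4 to Fgfr3 was 0.148 to 0.179 in controls and 0.352 to 0.375 with MMK-1, and that of Fgfr4 to Fgfr2 was 0.417 to 0.737 and 1.03 to 1.11. Both ratios were chosen after seeing the data. On the FPKM + 1 scale the log2 difference of the Fgfr4 to Fgfr3 ratio had the opposite sign, -0.05 (exact permutation p = 0.2), and from fragments it was 1.19 (exact permutation p = 0.1). Of the summed FPKM of all 9 receptors, the FGF receptors held 7.83% in controls and 26.5% with MMK-1.

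**Figure D2:**
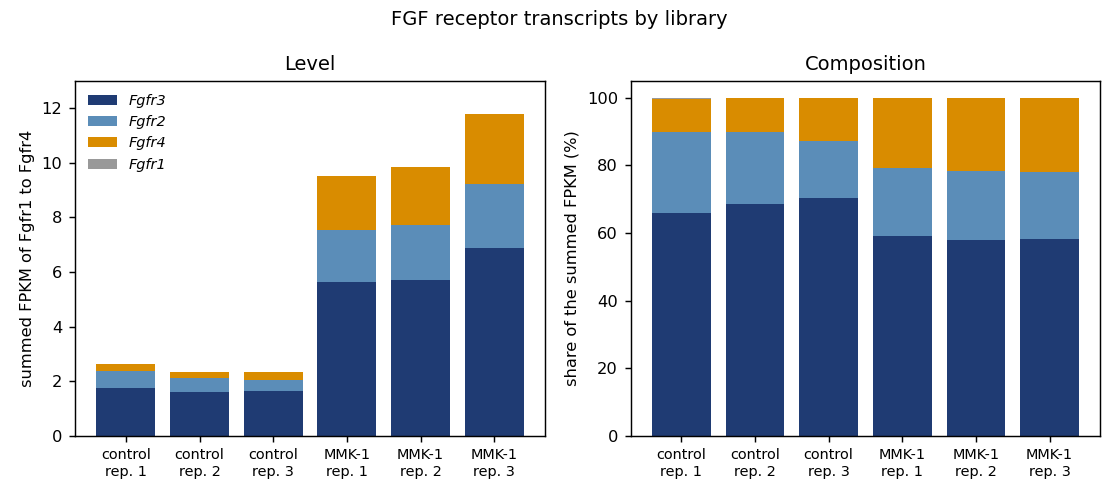
Summed FPKM of Fgfr1 to Fgfr4 in each library (left) and the share of each receptor in that sum in percent (right). The bars of the MMK-1 libraries lie between 9.53 and 11.8 FPKM and those of the controls between 2.34 and 2.65, and the segment of Fgfr4 takes a larger share of every MMK-1 bar.

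Around the receptors, a list of 26 coreceptors, binding proteins and proteases that process ligands held 12 tested genes, of which 6 were higher and 2 were lower, with a median log2 difference of 0.11. These counts are near the shares of all genes (48.5% and 24.7%), and they were 5 and 3 with upper-quartile scaling (38.9% and 33.1% of all genes) and 5 and 5 with the length correction (34.6% and 36.4%). Of the ligands of these receptors, 13 are listed in the table and only Kitl and Igf2 passed the filter. Fgfrl1, a receptor-like protein that binds FGFs but lacks the kinase domain, rose from 4.66 ± 0.2004 to 9.60 ± 0.132 FPKM (SD, n = 3), a log2 difference of 0.91 (limma adjusted p = 5.4e-07). Sdc4, the heparan sulfate proteoglycan syndecan-4, rose from 28.4 ± 0.889 to 42.7 ± 1.17 FPKM (log2 difference 0.57, limma adjusted p = 4.4e-06). The coreceptors that the endocrine FGFs need were scarce. Klb (β-klotho) had 22 to 36 fragments in controls and 15 to 29 with MMK-1 (limma-voom adjusted p = 0.41), and Kl (klotho) had none in any library.

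FGF ligand transcripts were scarce in both groups, and none reached a mean FPKM of 1. Fgf1, a ligand of all FGF receptors, had 237, 180 and 168 control fragments, against 21, 22 and 19 with MMK-1. Fgf2 had 78, 85 and 66, against 26, 30 and 18. Both fell, with limma-voom log2 differences of -3.15 (adjusted p = 4.5e-06) and -1.59 (adjusted p = 4.3e-04), where 23.3% of the genes that test covered were lower, and both genes were picked out after their values were seen. The direction was thus opposite to that of Fgfr2, Fgfr3 and Fgfr4. Fgf9 held 93 to 103 fragments in controls and 100 to 110 with MMK-1 (limma-voom adjusted p = 0.35). Fgf7 and Fgf15 had at most 6 fragments in any library. Summed markers of mesenchymal cells, which are a known source of FGFs, were 1.21 to 1.22 FPKM in controls and 0.359 to 0.511 with MMK-1, nearly all of it Pdgfrb in controls, with 7 of the 8 listed markers at a mean under 0.1 FPKM. Their part in the change of the ligands was not tested.

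Kit (NCBI gene 16590, chromosome 5, 75574987 to 75656722) had an FPKM of 1.78, 1.91 and 1.64 in controls and 3.11, 3.10 and 3.56 with MMK-1. The groups did not overlap, with 318 to 372 fragments against 572 to 686. The log2 difference was 0.62 (SE 0.0668, limma adjusted p = 4.3e-05), or 0.48 above the median of all genes. Of 7 mast cell markers 2 were analysed here, and these were close to 0, with Mcpt4 at 0 throughout and Mcpt2 at no more than 1 fragment in any control library and at 0 in the MMK-1 libraries. Of 3 listed markers of interstitial cells of Cajal, Gjc1 was at 0 in all libraries, and the sum of the 3 was 0.248 to 0.318 FPKM in controls, 0.626 and 0.693 in MMK-1 replicates 1 and 2 and 0.383 in replicate 3. Etv1 made up most of this sum, with 0.5497, 0.535 and 0.275 FPKM in the MMK-1 libraries, and Ano1 had 0.143, 0.0911 and 0.108. Kit itself was highest in replicate 3.

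Kitl, which encodes stem cell factor, the ligand of KIT, also rose. Its FPKM was 9.07, 9.35 and 9.88 in controls and 25.4, 25.1 and 13.3 with MMK-1. Replicate 3 lay far below the other MMK-1 libraries, though still above the controls, and the direction of its departure was opposite to that of Kit. The log2 difference was 1.04 (SE 0.205, limma adjusted p = 0.0016), which became 1.33 without this library and 0.68 after a correction for GC content, the transcript of Kitl having 39.3% G and C.

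Insr (NCBI gene 16337, chromosome 8, 3150922 to 3279649) was the second most abundant of the 9 receptors in both groups. Its FPKM was 9.23, 9.36 and 9.18 in controls and 9.85, 9.16 and 8.05 with MMK-1. The ranges overlapped, with MMK-1 libraries both above and below the controls. The log2 difference was -0.04 with a 95% confidence interval from -0.19 to 0.11 (limma adjusted p = 0.63), and without MMK-1 replicate 3 it was 0.03. It was -0.14 with upper-quartile scaling, and -0.18 with median-ratio scaling and with the GC correction (limma adjusted p = 0.104, 0.055 and 0.058), none of which was called. After a correction for gene length it was -0.25 (limma adjusted p = 0.0059), so that the call of a small fall depended on this choice.

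Igf1r (NCBI gene 16001, chromosome 7, 67952257 to 68233668) had a mean FPKM of 0.774 and was under the filter. Its FPKM was 0.679, 0.682 and 0.699 in controls and 0.831, 0.837 and 0.915 with MMK-1, from 330 to 339 and from 383 to 441 fragments. In the fit without a filter the log2 difference was 0.14 (limma adjusted p = 0.017), a fit in which 28.1% of genes were higher. In limma-voom it was 0.33 (adjusted p = 0.0057), where 45.3% of genes were higher and the median of all genes was 0.17. The rise was not called with a pseudocount of 0.1 over every gene above 0 (adjusted p = 0.086). Per length, Insr transcripts outnumbered those of Igf1r by 13.1 to 13.7 times in controls and 8.79 to 11.8 times with MMK-1. The ratio was lower in every MMK-1 library (log2 difference -0.18 on the FPKM + 1 scale, exact permutation p = 0.1, adjusted over 3 ratios 0.1). It was -0.087 without MMK-1 replicate 3, -0.33 with a pseudocount of 0.1 and -0.37 from fragments.

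Among the ligands and binding proteins of the IGF system, changes were found in single genes. Igf2, the fetal growth factor that signals through both receptors, had an FPKM of 2.65, 2.94 and 2.75 in controls and 0.820, 0.688 and 0.685 with MMK-1, a log2 difference of -1.13 (SE 0.063, limma adjusted p = 7.8e-07), or -1.93 in limma-voom. Igfbp4, a secreted protein that binds IGFs, rose from 2.32 ± 0.211 to 5.53 ± 0.5104 FPKM (log2 difference 0.98, limma adjusted p = 5.2e-06). Igfbp2, another IGF binding protein, had 2, 0 and 1 control fragments, against 39, 43 and 44 with MMK-1 (limma-voom adjusted p = 8.5e-06). Grb10, an adaptor that binds the insulin and IGF1 receptors and dampens their signal, had 60, 77 and 52 control fragments, against 192, 203 and 217 with MMK-1 (limma-voom log2 difference 1.75, adjusted p = 7.2e-06). Igfbp2 and Grb10 were under the filter and were picked out after their values were seen. Of the other binding proteins, Igfbp1 was at 0 throughout, Igfbp3 had 2, 4 and 1 control fragments against 6, 21 and 21 with MMK-1, and Igfbp5, Igfbp6 and Igfbp7 had at most 14 fragments in any library.

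Mst1r (NCBI gene 19882, chromosome 9, 107906858 to 107920383) was the most abundant of the 9 receptors in both groups and the only receptor that fell. Its FPKM was 12.6, 12.6 and 13.2 in controls and 10.3, 10.8 and 11.6 with MMK-1, from 2308 to 2414 and from 1787 to 2112 fragments. The groups did not overlap. The log2 difference was -0.21 (SE 0.0529, limma adjusted p = 0.0056), or -0.35 relative to the median of all genes, and it was -0.39 with the length correction.

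Met (NCBI gene 17295, chromosome 6, 17463349 to 17573980) had an FPKM of 4.36, 4.22 and 4.22 in controls and 4.40, 4.91 and 4.68 with MMK-1. The lowest MMK-1 value was only just above the highest control value. The log2 difference was 0.10 with a 95% confidence interval from -0.02 to 0.23 (limma adjusted p = 0.103). Its sign turned to -0.03 with median-ratio scaling, to -0.05 with the GC correction and to -0.10 with the length correction, none of which was called. The ratio of Met to Mst1r, which no scaling of whole libraries can move, was 0.319 to 0.345 in controls and 0.402 to 0.454 with MMK-1 (log2 difference 0.32 on the FPKM + 1 scale, exact permutation p = 0.1).

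Transcripts of the ligands of MET and MST1R were near 0, and those of the proteases that activate them varied in level. Hgf had 7 fragments in each control library and 9 to 16 with MMK-1 (limma-voom adjusted p = 0.092), and Mst1 had at most 7 in any library. Hgfac, the protease that cuts pro-HGF into its active form, fell from 14.0 ± 0.424 to 7.29 ± 0.619 FPKM (log2 difference -0.86, limma adjusted p = 3.2e-06). Spint1, a membrane inhibitor of that protease, fell from 102.0 ± 0.539 to 85.0 ± 3.38 FPKM (log2 difference -0.26, limma adjusted p = 4.0e-04, range over the alternatives -0.42 to -0.25). St14, which encodes the membrane protease matriptase, had 40.5 ± 0.945 and 44.4 ± 2.22 FPKM (log2 difference 0.13, limma adjusted p = 0.033), and this turned to 0.02 with upper-quartile scaling. Hpn, which encodes hepsin, another such protease, had at most 13 fragments in any library.

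**Figure D3:**
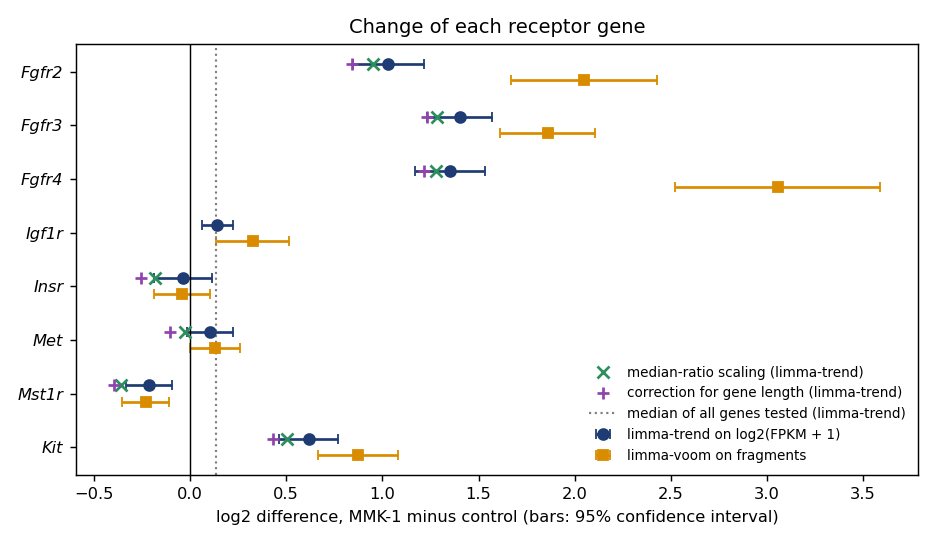
Log2 difference of each receptor gene, MMK-1 minus control, with 95% confidence intervals, from limma on log2(FPKM + 1) (circles, with Igf1r from the fit without a filter) and from limma-voom on fragments (squares). Crosses and plus signs give the limma values after median-ratio scaling and after a correction for gene length, and the dotted line is the median of all genes tested. Fgfr2, Fgfr3, Fgfr4 and Kit lie right of this line under each setting plotted, Mst1r lies left of 0, and the intervals of Insr include 0.

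By level, the control order was Mst1r, Insr, Met, Kit, Fgfr3, Igf1r, Fgfr2, Fgfr4 and Fgfr1. Kit and Fgfr3 overlapped in range and all other neighbours were separate. With MMK-1, Fgfr3 moved past Kit and Met to the third place, and Fgfr4 and Fgfr2, which then overlapped, moved past Igf1r. Among all listed genes, Fgfr3 went from percentile 55.4 to 67.7 by mean FPKM and Fgfr4 from 43.8 to 56.3, while Mst1r went from 80.2 to 76.4. Fgfr2, Fgfr3, Fgfr4, Igf1r, Mst1r and Kit had their highest MMK-1 value in replicate 3, and Insr had its lowest there.

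The transcripts with profiles nearest to that of Fgfr3 over the 6 libraries, by root mean square difference of log2(FPKM + 1) less the control mean, were Isyna1 (0.0332), Niban1 (0.0479) and Fgfr4 (0.0483). Isyna1 encodes inositol-3-phosphate synthase and rose from 20.7 to 57.4 FPKM, and Niban1 rose from 2.09 to 7.15 FPKM. The likeness of Fgfr4 holds on this scale, and its plain ratio was larger than that of Fgfr3. Nearest to Mst1r were Serac1 (0.0136), Lta4h (0.0196), the leukotriene A4 hydrolase, and Tbc1d17 (0.0198).

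Downstream of the receptors, most changes were smaller than those of the FGF receptors, and they went both ways. Of 23 tested adaptors, docking proteins and phosphatases, 13 were higher and 3 were lower, with a median log2 difference of 0.16 beside 0.13 for all genes, of which 48.5% were higher and 24.7% lower. The counts were 7 and 6 with upper-quartile scaling (38.9% and 33.1% of all genes), 6 and 7 with median-ratio scaling (34.9% and 37.1%) and 4 and 8 with the length correction (34.6% and 36.4%). The shares of all genes moved in the same direction, though less far than those of this list. Among the genes above the filter, which leaves out Grb10, the largest rises were those of Crk, an SH2-SH3 adaptor (0.58, limma adjusted p = 4.5e-06), Sos1, the exchange factor that loads RAS (0.50, adjusted p = 6.3e-05), and Cbl, the ubiquitin ligase that sends activated receptors to degradation (0.42, adjusted p = 1.6e-04). Over the alternatives, Sos1 ranged from 0.20, after the GC correction, to 0.57, Cbl from 0.21 to 0.51 and Crk from 0.37 to 0.60. Ptpn6, the tyrosine phosphatase SHP-1, fell from 14.0 ± 0.757 to 7.54 ± 0.6805 FPKM (-0.81, limma adjusted p = 8.7e-06). Gab1, a docking protein of MET, and Sh2b3, an adaptor that restrains KIT signaling, each fell by 0.20 on the log2 scale (limma adjusted p = 0.011 and 0.0034), and over the alternatives they reached -0.43 and -0.39. Of the docking proteins of FGF and insulin receptors, Frs2 was at 0.21 and Irs2 at 0.24 (limma adjusted p = 0.0079 for each), but neither was called with upper-quartile scaling (adjusted p = 0.085 and 0.0595), and Frs3 was at -0.01 (adjusted p = 0.89).

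In the PI3K, AKT and FOXO list, 9 of 19 tested genes were higher and 4 were lower (median 0.13), which is near the shares of all genes (48.5% and 24.7%), and the counts were 7 and 6 with upper-quartile scaling (38.9% and 33.1% of all genes) and 6 and 8 with the length correction (34.6% and 36.4%). Pik3r3, a regulatory subunit of PI3K, rose from 1.38 ± 0.0978 to 4.95 ± 0.253 FPKM (log2 difference 1.32, limma adjusted p = 2.1e-07), while Pik3r1, another regulatory subunit, fell by 0.22 (limma adjusted p = 0.0018), with a range of -0.44 to -0.20 over the alternatives. The phosphatases that remove an activating phosphate from AKT went opposite ways. Phlpp1 rose by 0.74 on the log2 scale (limma adjusted p = 8.0e-06) and Phlpp2 fell by 1.07, from 9.51 ± 0.343 to 4.01 ± 0.131 FPKM (limma adjusted p = 2.4e-07). Akt1 rose by 0.57 (limma adjusted p = 7.4e-06), and Foxo3, a transcription factor that AKT restrains, fell by 0.25 (limma adjusted p = 0.0042), with a range of -0.46 to -0.21.

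Of 8 tested genes of the RAS, RAF, MEK and ERK list, 5 were higher and 2 were lower (median 0.16), beside 48.5% and 24.7% of all genes. The counts were 2 and 3 with upper-quartile scaling (38.9% and 33.1% of all genes), and 1 and 3 with each of median-ratio scaling (34.9% and 37.1%), the GC correction (35.7% and 37.3%) and the length correction (34.6% and 36.4%). Map2k1 (MEK1) rose by 0.39 (limma adjusted p = 2.9e-05), with a range of 0.24 to 0.42 over the alternatives. Braf, at 0.27 (limma adjusted p = 0.0033), kept its sign but was not called with median-ratio scaling, the GC correction or the length correction. Araf fell by 0.44 (limma adjusted p = 5.4e-05) and Mapk3 (ERK1) fell by 0.31 (limma adjusted p = 1.7e-04), with a range of -0.47 to -0.30 over the alternatives.

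The pathway annotation of the table puts 8 of the 9 receptors, all but Mst1r, in the MAPK, Ras, Rap1 and PI3K-Akt signaling pathways of KEGG.

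**Figure D4:**
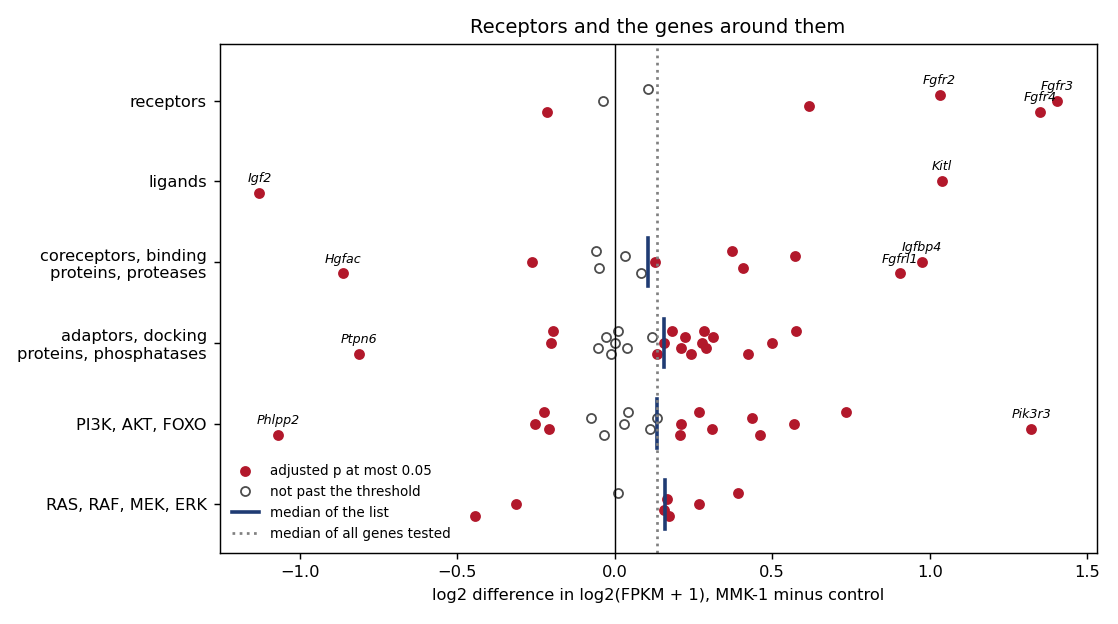
Log2 difference in log2(FPKM + 1), MMK-1 minus control, of each tested receptor gene and of the tested genes of 5 lists around them. Filled points have an adjusted p of at most 0.05, open points do not, short vertical lines are the medians of lists other than the receptors and ligands, and the dotted line is the median of all genes tested (0.13). Fgfr2, Fgfr3, Fgfr4, Kitl and Pik3r3 lie beyond 1 on the right, and Igf2 and Phlpp2 beyond -1 on the left.

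Cell type markers moved with these changes. The summed FPKM of 6 intestinal stem cell markers was 50.2 to 51.2 in controls and 328 to 341 with MMK-1, and all 6 rose. All 6 tested Paneth cell markers rose, from a sum of 392 to 434 to a sum of 1275 to 1403 FPKM. The sum of 8 enterocyte markers was 8518 to 8649 in controls and 5120 to 5523 with MMK-1, with 7 of the 8 lower. Of 7 enteroendocrine markers 5 rose (4 with upper-quartile scaling), with sums of 299.97 to 316 and 425 to 435 FPKM, and of 6 goblet cell markers 4 rose and 2 fell. Of all genes tested, 48.5% rose and 24.7% fell, so that nothing is read from the enteroendocrine and goblet counts. The 5 tuft cell markers were all under the filter, with sums of 1.10 to 1.23 and 1.72 to 1.95 FPKM. In limma-voom, where 45.3% of genes were higher, Pou2f3 rose by 1.51 (adjusted p = 3.2e-04) and Trpm5 by 0.76 (adjusted p = 0.012). Dclk1, at 0.25 (adjusted p = 0.27), and Avil, at -0.085 (adjusted p = 0.70), were not called, and Il25 had at most 3 fragments in any library. Markers of leukocytes, cells in which Ptpn6 is abundant, summed to 3.16 to 3.40 FPKM in controls and 1.54 to 1.68 with MMK-1, and Itgam, the only tested gene among them, fell by 0.79 on the log2 scale (limma adjusted p = 9.2e-06). Itgam made up most of this sum. Csf1r was also lower, with 20 to 23 control fragments and 0 to 2 with MMK-1. Lyz2 was not called (limma-voom adjusted p = 0.42), and Ptprc, Tyrobp and Cd3e had at most 3 fragments in any library. The 7 broad epithelial markers were present in all libraries, with a sum of 3355 to 3387 FPKM in controls and 2403 to 2594 with MMK-1. Of these, 3 were lower (Vil1, Krt19 and Krt8) and 3 were higher, beside 24.7% and 48.5% of all genes. The part of these shifts in the changes of Fgfr2, Fgfr3, Fgfr4, Kit, Mst1r and Ptpn6 was not tested. Values of FPR family genes are not given.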

How the data were processed

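Organoid RNA was extracted with Trizol, and libraries were made with the VAHTS Universal V10 kit and sequenced as paired-end reads on an Illumina NovaSeq. The authors deposited FPKM values. The submitters' processing notes list HISAT2, HTSeq, DESeq2, R 3.2.0 and mm10. The annotation and strand setting are not given in the sources used here, so that overlapping genes cannot be told apart. RefSeq lncRNAs that were not analysed here overlap Fgfr1, Igf1r and Met.

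Within a gene and library, FPKM values were whole multiples of a step, from which fragments and library totals were computed. About 99.7% of each total lay on listed genes, and fragments of 3 genes could not be recovered. In simulated libraries, fragments of 98.9% of 19225 genes were recovered, and of 99.9% up to a common factor. Fragment numbers carry counting error, and libraries of a group differed by more than that (chi-square per degree of freedom 2.83 to 36.6).

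The main test was limma 3.58.1 (R 4.3.3, trend) on log2(FPKM + 1), without a replicate block, in genes whose mean FPKM was 1 or more, with Benjamini-Hochberg adjustment and a threshold of 0.05. Genes under this filter were read from limma-voom on genes with enough fragments (a minimum of 10) or from a fit without a filter. In simulated data, 194 of 10287 tested genes were changed, and the limma test called 100% of these and 0.0793% of the unchanged genes. In the organoid data 48.5% of genes tested were called higher and 24.7% lower, a far larger share than was changed in the simulation. The simulated rates are therefore not read as error rates here, nor for small changes or for a library that stands apart from its group. Single values were tested with exact two-sided permutation tests. Corrections for GC content and length used loess with a span of 0.3. Alternatives covered scaling, filter, pseudocount, unit, block and each left-out replicate.

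The receptors and the gene lists were chosen with earlier results of these data known. Some genes of the RAS, RAF, MEK and ERK list are not reported here and were left out of its counts. Named genes are the receptors, ligands above that filter, the 3 largest changes in each direction of every other list among genes past the threshold, and the 3 nearest profiles of the receptors with the largest rise and fall on the log2(FPKM + 1) scale, and not all are given singly. Other genes of the lists are named to account for the system they belong to and were picked after their values were seen. Python 3.11.15, numpy 2.4.6, pandas 2.3.3, scipy 1.17.1 and matplotlib 3.10.9 were used.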

Additional observations from a re-analysis of the deposited data

How the results depend on the processing

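Fgfr2, Fgfr3, Fgfr4, Kit and Mst1r kept their direction and their call at the adjusted threshold under all 17 alternatives, with log2 differences from 0.84 to 2.05, 1.23 to 1.86, 1.22 to 3.06, 0.43 to 0.87 and -0.39 to -0.18. Receptor genes called lower were 2 with the length correction, where Insr was -0.25 (adjusted p = 0.0059), and 0 at the fold change of 2. Igf1r was 0.29 (adjusted p = 0.086) with a pseudocount of 0.1 over every gene above 0. Insr was 0.034 without MMK-1 replicate 3. Met was -0.025 with median-ratio scaling, -0.053 with the GC correction and -0.10 with the length correction. The Insr to Igf1r ratio was -0.33 with a pseudocount of 0.1 and -0.37 from fragments per length. The Fgfr2 to Fgfr3 ratio, -0.37 on the FPKM + 1 scale, was 0.054 and 0.19 under these settings, so that its sign rests on the pseudocount. With 1 replicate left out in turn, log2 differences ranged from 0.97 to 1.09 for Fgfr2, 1.32 to 1.45 for Fgfr3, 1.27 to 1.41 for Fgfr4, -0.10 to 0.03 for Insr, 0.07 to 0.14 for Met, -0.26 to -0.18 for Mst1r and 0.57 to 0.65 for Kit.

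Over all genes, 3916 were lower at the adjusted threshold with median-ratio scaling, 4086 with upper-quartile scaled limma-voom (chosen after seeing the data) and 3938 with the GC correction, against 2606. Genes higher at the fold change of 2 were 676 with a pseudocount of 0.1, 1097 with this pseudocount over every gene above 0, 225 with median-ratio scaling, 1388 with limma-voom, 1096 with its scaled form, 220 with the GC correction and 236 with the length correction, against 358. Genes lower were 818 with that pseudocount over every gene above 0, 899 with limma-voom and 1048 with its scaled form, against 385. The causes were not tested. Same-numbered libraries did not deviate together (r = 0.025, -0.040 and 0.028). No pairing by number was therefore seen, though with 3 libraries per group, 1 of them apart from its group, a weak pairing could be missed. With the number as a replicate block 4 receptors were called higher and 1 lower, with 5024 and 2543 genes in all.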
